A study of Mus musculus with 3 samples.

Results

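The genes described here are the enzymes, carriers and regulators of gluconeogenesis, the making of new glucose, in the mouse kidney. They are Pcx, Pck1, Pck2, Fbp1, G6pc, Slc37a4, Glud1, Foxo1 and Ppargc1a, taken by their symbol from the gene list of each library, where every symbol had 1 row, and they are 9 of 32285 genes counted. Raw counts of UMIs (unique molecular identifiers, which mark single captured RNA molecules) came from droplet single-cell RNA sequencing of whole kidneys of male mice aged 28 weeks. In db/db mice the leptin receptor's long form does not work in any cell, which makes them obese and diabetic from early life, whereas db/m mice keep 1 normal copy and stay lean. Feeding began at 8 weeks of age and ran for 20 weeks, with a fructose-free control diet for db/m mice and for 1 group of db/db mice and a diet holding 60% fructose for a further db/db group. Each group gave 1 library, and how many mice entered it is not given in the sources used here, so differences have no replicate check and no test was run. Every interval below is a 95% interval for counting error only.

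Gluconeogenesis runs glycolysis backwards except at its irreversible steps, which it passes with its own enzymes. Pyruvate carboxylase (Pcx) and a phosphoenolpyruvate carboxykinase (Pck1 in the cytosol, Pck2 in mitochondria) turn pyruvate into phosphoenolpyruvate, fructose-1,6-bisphosphatase (Fbp1) and the glucose-6-phosphatase catalytic subunit (G6pc) remove the phosphates, and Slc37a4 carries glucose-6-phosphate into the endoplasmic reticulum, where G6pc acts. In the kidney the pathway belongs to the proximal tubule, which makes glucose mainly from lactate and glutamine, takes up glutamine carbon through glutamate dehydrogenase (Glud1) and releases ammonia on the way. Foxo1, a forkhead transcription factor that insulin signalling drives out of the nucleus, and Ppargc1a, a coactivator of mitochondrial biogenesis and of gluconeogenic genes, are regulators of the pathway.

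The promoters of 4 members are printed first, because Pck1 and G6pc were higher in late than in early proximal tubule-like cells of all 3 libraries, and Fbp1 and Ppargc1a were the 2 members past 1.5-fold between the genotypes. Each line is the 250 bases before the RefSeq transcription start, 5′ to 3′ on the gene's strand, in build GRCm38.p6. The windows are chr2:173152823-173153072 on the + strand for Pck1, chr11:101367466-101367715 on the + strand for G6pc, chr13:62888283-62888532 on the - strand for Fbp1 and chr5:51567726-51567975 on the - strand for Ppargc1a. The GENCODE annotation starts Pck1 and G6pc further upstream, inside these windows. Capitals mark matches to 5 motifs, searched on both strands.
Pck1: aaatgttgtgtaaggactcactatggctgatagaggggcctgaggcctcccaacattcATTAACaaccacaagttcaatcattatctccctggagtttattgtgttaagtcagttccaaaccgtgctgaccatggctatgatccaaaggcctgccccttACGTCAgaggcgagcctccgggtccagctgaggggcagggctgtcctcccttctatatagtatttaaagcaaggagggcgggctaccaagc
G6pc: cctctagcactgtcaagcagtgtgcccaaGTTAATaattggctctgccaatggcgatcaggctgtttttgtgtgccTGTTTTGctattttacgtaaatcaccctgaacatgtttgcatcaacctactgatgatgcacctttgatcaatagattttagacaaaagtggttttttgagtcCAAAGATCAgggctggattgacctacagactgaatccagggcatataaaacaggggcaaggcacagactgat
Fbp1: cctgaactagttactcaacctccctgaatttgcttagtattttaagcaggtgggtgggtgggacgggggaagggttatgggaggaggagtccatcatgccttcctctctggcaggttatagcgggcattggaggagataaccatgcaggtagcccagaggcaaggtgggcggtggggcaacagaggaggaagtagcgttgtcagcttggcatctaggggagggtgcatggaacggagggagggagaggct
Ppargc1a: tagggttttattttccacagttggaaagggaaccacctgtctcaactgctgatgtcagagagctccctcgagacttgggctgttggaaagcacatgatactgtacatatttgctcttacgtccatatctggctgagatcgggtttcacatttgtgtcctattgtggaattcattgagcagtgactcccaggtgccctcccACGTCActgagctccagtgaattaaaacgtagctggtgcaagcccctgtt

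The longer part of a cyclic AMP response element was searched as ACGTCA, and 6.47% of 32851 promoter windows of this length held it. It began 91 bases before the start of Pck1 and 50 bases before that of Ppargc1a, and Slc37a4 held it at 1 site, which lies in 2 overlapping windows of its 3. A further motif was searched as GTTAAT (6.43% of windows). It began 192 bases before the start of Pck1, on the opposite strand, and 221 bases before that of G6pc. An HNF4-type repeat, searched as CAAAGNNCA (5.49% of windows), began 72 bases before the start of G6pc. An insulin response type, searched as TGTTTTG (5.56% of windows), began 174 bases before the start of G6pc and 159 bases before that of Pck2. The forkhead consensus TGTTTAC (3.17% of windows) matched in no member. In the printed windows no matches overlapped, and none of the 5 motifs matched in the windows of Fbp1, Pcx, Foxo1 or Glud1. All 9 genes had an entry in the RefSeq promoter table, with 12 start sites in all. A match says only that these letters are in the window.

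In the order db/m, then control-fed and fructose-fed db/db, which values by library keep below, the libraries held 13524, 26513 and 20383 barcodes with 31660184, 52704335 and 42028885 UMIs. Between 379 and 780 barcode sequences were shared by a pair of libraries and 13 by all 3. Filtering left 9940, 16227 and 16049 cells with medians of 1679, 1628 and 1531 UMIs. The kept db/db control cells stood apart by their share of mitochondrial UMIs, with a median of 24.6% against 15.1% in db/m and 10.6% in db/db fructose. Clusters were named from marker lists without the 9 members, and a name means cells like that type. Proximal tubule-like cells numbered 5765, 6407 and 7990, and the summed level of their 15 markers was 19023, 15020 and 20232 CPM (UMIs of a gene per 1000000 UMIs of the class in that library) against 1751 to 6729 CPM in the 10 other classes with at least 50 cells per library.

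In proximal tubule-like cells, the db/db control library had higher levels than db/m for 5 of 8 members by their counting intervals, led by Ppargc1a and Glud1, and a lower level of Fbp1, and these differences were not all seen within single clusters of cells. The smallest of them, that of G6pc, changed sign under some other filters. The db/db fructose library stood above the db/db control library for 7 of the 8 members with at least 10 CPM, with Pck1, Slc37a4 and Foxo1 past 1.5-fold, and below it for Ppargc1a. The plot of levels by library shows both patterns. Pck2 stayed under 10 CPM there in each library and was not compared.

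**Figure D1:**
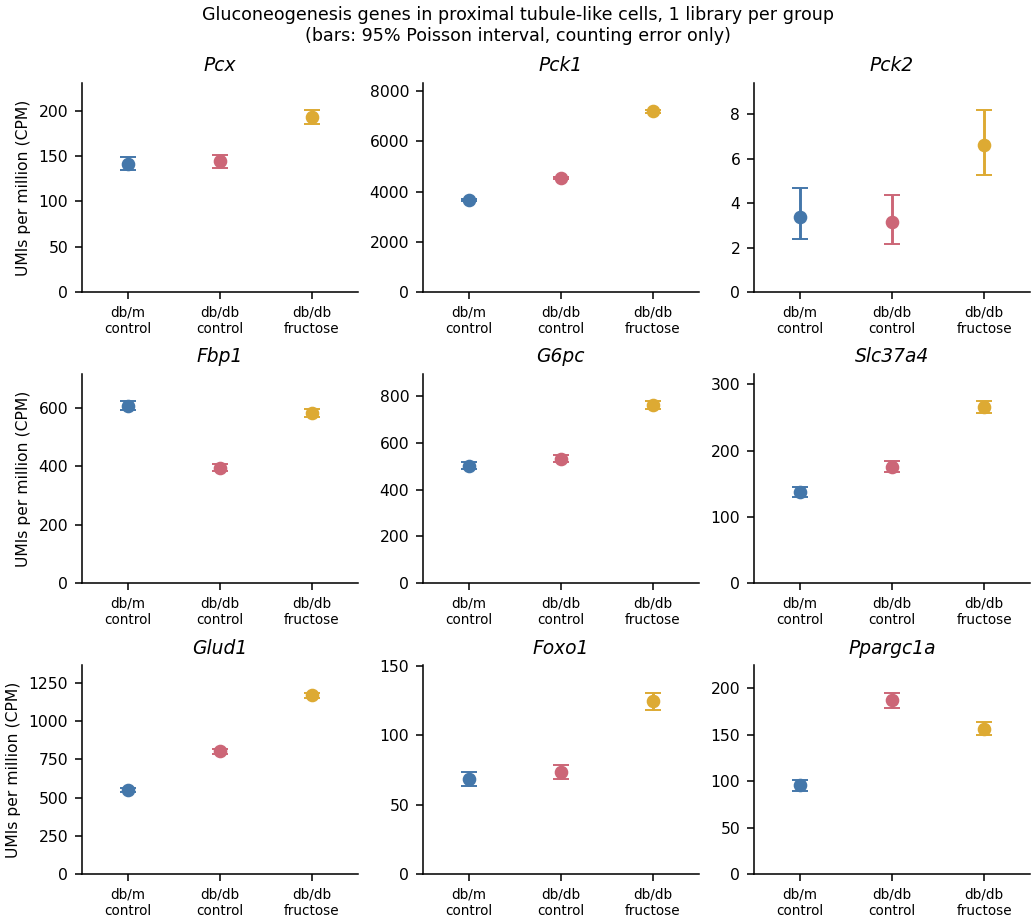
Level of each member in proximal tubule-like cells (y axis, CPM, from 0) in each library (x axis, db/m first, db/db fructose last), 1 point per library with its 95% Poisson interval. Pck1, Slc37a4 and Glud1 rank db/m, db/db control, db/db fructose from low to high, Fbp1 is lowest in db/db control, and Ppargc1a is highest there.

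The first bypass step was carried by Pcx and Pck1. Pck1, the cytosolic carboxykinase and a gene known for its response to acidosis and cyclic AMP, measured 3675 CPM in db/m (3639 to 3712), 4532 CPM in db/db control (4492 to 4573) and 7194 CPM in db/db fructose (7147 to 7240). The 3 levels did not overlap in their counting intervals, and fructose stood highest. Between the genotypes on control diet (db/db over db/m) the log2 ratio was 0.30 (0.28 to 0.32), and between the diets in db/db (fructose over control) it was 0.67 (0.65 to 0.68), and pairs of ratios below keep this order. Pcx measured 141, 144 and 193 CPM in the same order. It differed by less than counting error between the genotypes, at a log2 ratio of 0.03 (-0.07 to 0.13), and was higher under fructose, at 0.42 (0.33 to 0.51). Pck2, the mitochondrial carboxykinase, gave 36, 34 and 84 counts, or 3.38, 3.13 and 6.61 CPM.

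At the phosphatase steps the genotype ratios of the enzymes were unlike each other. Fbp1, which removes a phosphate from fructose-1,6-bisphosphate, measured 608 CPM in db/m (593 to 623), 396 CPM in db/db control (384 to 408) and 582 CPM in db/db fructose (569 to 596). Only the db/db control library was low, at a log2 ratio of -0.62 (-0.67 to -0.56) to db/m, and db/db fructose was higher than db/db control by 0.56 (0.50 to 0.61). G6pc, which frees glucose in the last step, measured 503, 533 and 763 CPM, with log2 ratios of 0.08 (0.03 to 0.14) and 0.52 (0.47 to 0.56). Slc37a4, the carrier that feeds G6pc, measured 138, 176 and 265 CPM, with ratios of 0.35 (0.25 to 0.45) and 0.59 (0.51 to 0.67). G6pc therefore separated the diets and hardly the genotypes, whereas Slc37a4 was stepwise higher over the 3 libraries.

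Glud1, which takes glutamate into the tricarboxylic acid cycle and yields ammonium, measured 551 CPM in db/m (537 to 565), 803 CPM in db/db control (786 to 820) and 1166 CPM in db/db fructose (1147 to 1185). Its log2 ratio was 0.54 for each comparison, just under the 1.5-fold line. Among the regulators, Foxo1 measured 68.4, 73.3 and 124 CPM, at ratios of 0.10 (-0.05 to 0.25) and 0.76 (0.64 to 0.89), so only the fructose library was outside the counting intervals of the others. Ppargc1a had another order. It measured 95.8 CPM in db/m (90.0 to 101.8), 187 CPM in db/db control (179 to 195) and 156 CPM in db/db fructose (150 to 163), at log2 ratios of 0.96 (0.86 to 1.07) and -0.26 (-0.35 to -0.17).

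Read as calls, 1 of 8 measured members was at least 1.5-fold higher (Ppargc1a) and 1 at least 1.5-fold lower (Fbp1) in db/db control than in db/m, where 7.29% of 8626 measured genes were higher and 12% lower, 19.3% in either direction. The median log2 ratio of the 8 members was 0.20 beside -0.00 for all measured genes. For db/db fructose over db/db control, 3 of 8 were higher (Pck1, Slc37a4 and Foxo1) and none lower, where 11.8% of 8897 genes were higher and 1.44% lower, 13.2% in either direction. The members' median was 0.55 beside 0.25 for all genes, and 7 of 8 members had a counting interval above that gene-wide median. The 2 comparisons share the db/db control library, so a value particular to that library enters both, with opposite sign.

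The share of mitochondrial UMIs moved with the groups and sets part of the scale. In proximal tubule-like cells its median was 14.6%, 20.9% and 9.26%, and with counts scaled to UMIs of the nuclear genome the gene-wide median ratio for fructose went from 0.25 to 0.07. On that scale no member was past 1.5-fold under fructose (background 5.21% higher and 2.53% lower, 7.74% in all). Foxo1 had a log2 ratio of 0.58, Pck1 0.48, Slc37a4 0.41, Fbp1 0.37, Glud1 0.35, G6pc 0.33, Pcx 0.23 and Ppargc1a -0.44. Relative to the gene-wide median, Pck1 was higher under fructose by 0.41 on the first scale and by 0.41 on the nuclear scale, and Ppargc1a stood at -0.51 on both. Between the genotypes, the nuclear scale put Ppargc1a (1.03) and Glud1 (0.61) past 1.5-fold and Fbp1 (-0.55) just inside it, with a background of 9.89% higher and 9.64% lower, 19.5% in all. The plot of ratios shows both scales.

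**Figure D2:**
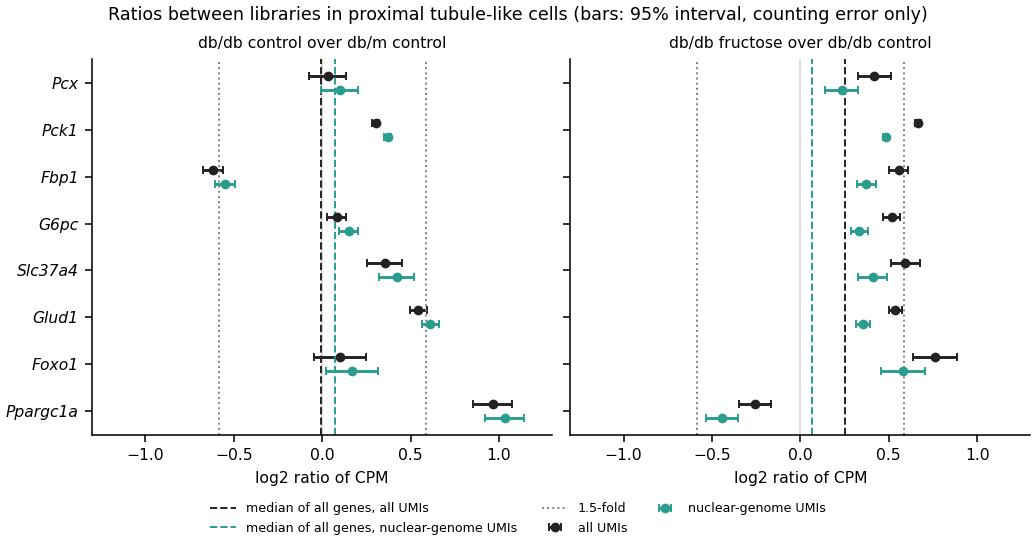
Log2 ratio of the level of 8 members in proximal tubule-like cells between 2 libraries (x axis), for db/db control over db/m control (left) and db/db fructose over db/db control (right), on the scale of all UMIs (black) and of nuclear-genome UMIs (green), with 95% intervals for counting error. Dashed lines are the medians of all measured genes and dotted lines 1.5-fold, and under fructose 7 members lie to the right of the gene-wide median on either scale and Ppargc1a to the left.

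The libraries filled different clusters of proximal tubule-like cells, and the members were unequal among them. Of the db/m cells 54.3% and 33.8% lay in 2 clusters that held under 2% of the cells of each other library. The second of these db/m clusters had a median mitochondrial share of 22.4%, against 11.2% in the first, and lower Pck1 (2225 against 4536 CPM), G6pc (325 against 618 CPM) and Ppargc1a (54.7 against 104 CPM), with higher Fbp1 (780 against 528 CPM). Of the db/db fructose cells 34.4% lay in a cluster with 9996 CPM of Pck1, 1035 CPM of G6pc and 1363 CPM of Glud1. A pair of clusters had at least 200 cells in each library. In the first, with 395, 1340 and 3043 cells and the early tubule genes Slc5a12 and Slc5a2 among its leading genes, Ppargc1a measured 245, 274 and 214 CPM. There the genotype ratio was 0.16 (-0.09 to 0.42) for Ppargc1a, 0.05 (-0.08 to 0.18) for Glud1 and -0.02 (-0.08 to 0.04) for Pck1, so these genotype differences were not detectable within that cluster. G6pc gave -0.08 (-0.25 to 0.10), Pcx -0.06 (-0.39 to 0.29) and Foxo1 -0.33 (-0.78 to 0.15), and Fbp1 was lower, at -0.49 (-0.68 to -0.30). In all, 5 of 8 members were below 0 there, 1 by its interval, and Slc37a4 alone had an interval above 0, at 0.42 (0.09 to 0.76). The median genotype ratio of all measured genes in that cluster was -0.11. In the second, with 232, 2571 and 1113 cells, the genotype ratio of Ppargc1a was 0.73 (0.25 to 1.26), that of Glud1 0.49 (0.26 to 0.72), that of Pck1 0.29 (0.19 to 0.39) and that of Slc37a4 0.74 (0.21 to 1.32), so 4 of 8 members had an interval above 0. Fbp1 gave -0.24 (-0.50 to 0.04) and G6pc -0.03 (-0.30 to 0.25). The median of all measured genes in this second cluster was 0.09.

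Within these clusters the diet ratios of Pck1, Slc37a4 and Glud1 were smaller than over the whole class, and that of Fbp1 was not smaller in the second. The median diet ratio of all measured genes was 0.20 in the first and 0.17 in the second. Pck1 was higher under fructose by 0.34 and 0.23 in the pair, Slc37a4 by 0.45 and 0.49, Fbp1 by 0.54 and 0.71 and Glud1 by 0.16 and 0.25. Foxo1 gave 0.62 in the first and -0.01 (-0.41 to 0.37) in the second, and G6pc 0.38 and 0.07. Ppargc1a was lower in both, at -0.36 and -0.47. Below the gene-wide medians lay Ppargc1a in both clusters, Glud1 in the first, and G6pc and Foxo1 in the second. Among cells with 5 to 15% mitochondrial UMIs, whatever their cluster, Ppargc1a kept its genotype ratio, at 0.95, and Pck1 and Foxo1 were higher under fructose by 0.50 and 0.53. The part of the cluster makeup in the differences over the class was not tested.

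To follow the members along the tubule, cells with at least 3 UMIs of segment markers were ordered by the share of late among early and late markers and divided at the db/m terciles into early, middle and late ranges, which are ranges of a score and not cell types. The early range held 1940, 3931 and 4530 cells over the libraries, the middle range 1817, 1803 and 2307, and the late range 1808, 501 and 1048, and 25.9%, 20.4% and 19.7% of the cells of each library lay within 0.05 of a division. Pck1 and G6pc were higher toward the late end in each library. Pck1 measured 3235 CPM in early and 4213 CPM in late db/m cells, 3979 and 5856 CPM in db/db control, and 5514 and 10376 CPM in db/db fructose, at late-over-early log2 ratios of 0.38, 0.56 and 0.91. G6pc went from 414 to 612 CPM, from 460 to 679 CPM and from 623 to 1029 CPM, at ratios of 0.57, 0.56 and 0.72. With each library clustered on its own and its clusters ordered by late share, Pck1 was not higher at every step. It measured 3979, 3462, 2056, 4038 and 5076 CPM in db/m, 4139, 3282 and 5582 CPM in db/db control, and 5894, 4707, 3043, 5555 and 9616 CPM in db/db fructose. Both Pck1 and G6pc were highest in the latest cluster of each library.

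Ppargc1a ran the other way. It measured 129 CPM in early and 78.6 CPM in late db/m cells, 222 and 114 CPM in db/db control, and 187 and 116 CPM in db/db fructose, at ratios of -0.72, -0.96 and -0.69. The middle range already stood near the late one, at 81.3, 133 and 117 CPM. Foxo1, in contrast, was higher late than early in each library, at 62.1 and 81.3, 63.7 and 90.2, and 98.1 and 170 CPM. The 2 regulators thus had opposite slopes between these ranges in all 3 libraries. Over the 7 settings given below, the lowest Foxo1 ratios were 0.05, 0.37 and 0.50, and the reported db/m ratio, 0.39, was the highest. In the clusters of db/m alone, from early to late, Foxo1 measured 83.7, 58.4, 43.5, 79.4 and 88.3 CPM. Ppargc1a measured 193, 109, 50.7, 75.5 and 97.0 CPM, so neither moved steadily, nor did they in db/db fructose. In db/db control, Foxo1 measured 63.0, 63.2 and 85.4 CPM and Ppargc1a 270, 214 and 123 CPM.

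The slopes of Glud1 and Pcx differed in sign between libraries. Glud1 was lower late than early in db/m (621 and 499 CPM) and db/db control (844 and 713 CPM) and higher late in db/db fructose (1066 and 1340 CPM). Pcx was lower late in db/m, at -0.28 (-0.47 to -0.10), and higher late in db/db control and db/db fructose, at 0.53 and 0.45. Fbp1 was level in db/m, at 610 and 598 CPM, and higher late in db/db control, at 357 and 468 CPM, with 554 and 595 CPM in db/db fructose. Slc37a4 was level in db/m and db/db control and higher late in db/db fructose, at 0.37 (0.22 to 0.51). With 1 library per group these differences in slope were not tested.

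**Figure D3:**
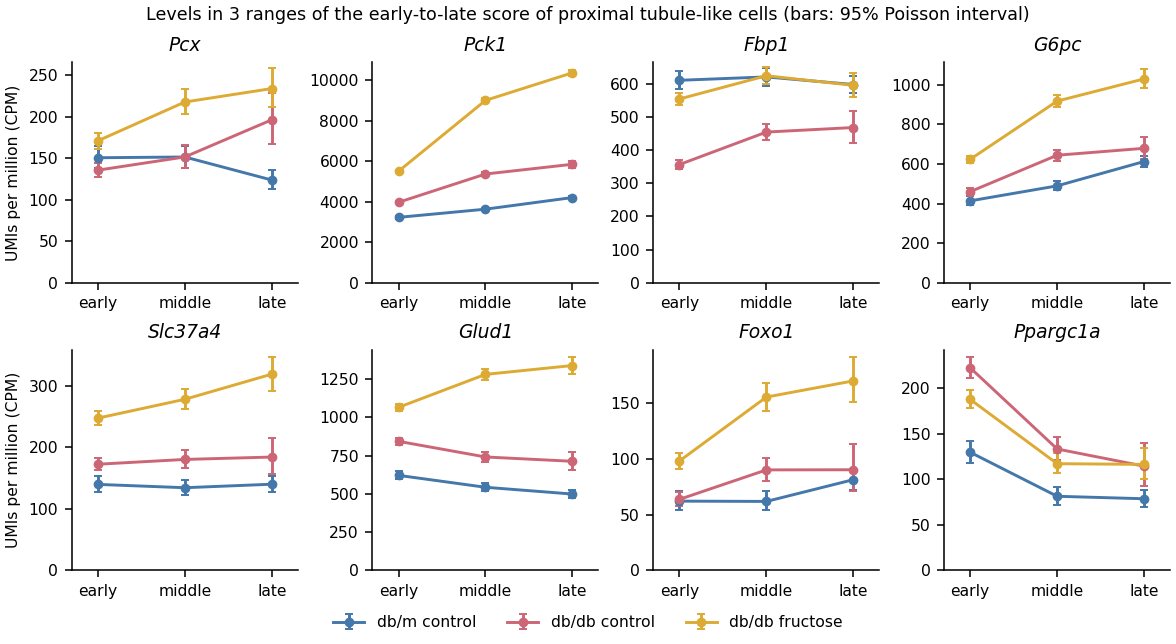
Level of 8 members (y axis, CPM, from 0) in the early, middle and late ranges of proximal tubule-like cells (x axis), 1 line per library with 95% Poisson intervals. Pck1 and G6pc are higher and Ppargc1a lower toward the late end in every library, and Glud1 slopes down in the control-diet libraries and up under fructose.

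By the 1.5-fold line, Ppargc1a was the 1 member called late over early in both control-diet libraries, where it was lower. Of all genes 11.7% were higher and 6.32% lower in db/m, 18% in all, and 9.21% higher and 8.6% lower in db/db control, 17.8% in all. In db/db fructose 4 of 8 were called, Pck1, G6pc and Foxo1 higher and Ppargc1a lower, where 9.49% of genes were higher and 6.61% lower, 16.1% in all. Over 7 settings of the score, filters and scale, the reported one included, the late-over-early ratio of Pck1 stayed between 0.07 and 0.38 in db/m and between 0.66 and 1.01 in db/db fructose, and that of Ppargc1a between -1.08 and -0.60 over the libraries. The lowest Pck1 value in db/m came from the androgen-responsive late markers, whose summed level in the late range was 3004 CPM in db/m, 502 CPM in db/db control and 1245 CPM in db/db fructose.

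The libraries were also compared within the same range of the score. Its markers themselves differed between libraries, as did the late marker Atp11a (1126, 194 and 451 CPM) and the early marker Slc5a12 (403, 397 and 1118 CPM). In late cells the late markers summed to 6612, 4236 and 6741 CPM. A range therefore need not hold the same part of the tubule in each library. In early cells, Ppargc1a was higher in db/db control than in db/m by 0.78 (0.62 to 0.93) and Fbp1 was lower, at -0.78 (-0.86 to -0.69), and these were 2 of 8 members past 1.5-fold beside 8.07% of all genes higher and 11.5% lower, 19.5% in all. In late cells the genotype ratio of Fbp1 was -0.35 (-0.51 to -0.20), that of Ppargc1a 0.54 (0.19 to 0.88), and Pcx was past 1.5-fold at 0.67, 1 of 8 beside 11.6% of genes higher and 18.5% lower, 30.1% in all. Over the 7 settings the Pcx ratio ran from 0.22 to 0.78, so the call did not hold in each, and it rested on 163 db/db control counts. On the nuclear scale 4 of 8 members were past 1.5-fold in late cells, Pcx (0.78), Ppargc1a (0.66), Glud1 (0.63) and Pck1 (0.59). The gene-wide share on the nuclear scale was not computed within a range, so that count has no background beside it. Under fructose, early cells had 2 of 8 members past the line, Fbp1 at 0.64 and Foxo1 at 0.62, beside 11.6% of genes higher and 1.42% lower, 13% in all. On the nuclear scale neither was past it, at 0.45 and 0.44. Late cells had 5 of 8, Foxo1 (0.91), Glud1 (0.91), Pck1 (0.83), Slc37a4 (0.79) and G6pc (0.60), beside 27.2% of genes higher and 5.29% lower, 32.5% in all. Over the 7 settings, the lowest of these late diet ratios were 0.40 for G6pc and 0.26 for Slc37a4, both under the line. Pck1, Glud1 and Foxo1 stayed past it, with lowest ratios of 0.62, 0.71 and 0.71. Ppargc1a was lower under fructose in early cells, at -0.24 (-0.35 to -0.14), but not in late cells, at 0.02 (-0.34 to 0.39). The late db/db control range rests on 501 cells, with 75 counts of Foxo1 and 593 of Glud1.

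The shares of proximal tubule-like cells with a UMI of a member gave the same order of libraries as the levels for Pck1, G6pc and Ppargc1a. With each cell thinned to 1000 UMIs, which left out 1097, 300 and 1185 shallower cells, Pck1 was seen in 90.5%, 94.3% and 97.3% of cells (93.9%, 97.6% and 97.9% unthinned), at median depths of 1519, 1593 and 1483 UMIs. In lymphocyte-like cells, which should lack Pck1, the thinned share was 49.2%, 66.7% and 60.0% over 59, 63 and 60 cells, at median depths of 1662, 1494 and 1416 UMIs. G6pc was seen in 34.4%, 35.0% and 43.7% of thinned proximal tubule-like cells (45.3%, 48.0% and 52.1% unthinned) against 10.2%, 6.35% and 15% of lymphocyte-like cells. Ppargc1a was seen in 9.47%, 16.1% and 14% (14.6%, 24.9% and 20.6% unthinned) against 1.69%, 7.94% and 5.00%. Pck2, in 0.236%, 0.344% and 0.602% of thinned cells (0.607%, 0.531% and 1.01% unthinned), was too rare to compare with lymphocyte-like cells, whose exact intervals reached 11.7%, 8.53% and 5.96%.

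Across the 11 classes with at least 50 cells per library, the members fell into groups by where they were highest. Pck1, G6pc, Fbp1, Pcx, Slc37a4 and Glud1 were highest in proximal tubule-like cells in all 3 libraries, and for each of these 6 the lowest proximal tubule library was above the highest library of the next class. Below that first place the order was loose: 7 to 9 of the 10 neighbouring pairs of classes overlapped in the ranges of their 3 libraries for each of the 9 members. Foxo1 was highest in endothelium-like cells, at 169 CPM in db/m, 135 CPM in db/db control and 151 CPM in db/db fructose, all above its proximal tubule range of 68.4 to 124 CPM. Ppargc1a was highest in distal convoluted tubule-like cells (275, 271 and 305 CPM) and thick ascending limb-like cells (245, 267 and 298 CPM), whose ranges overlapped, followed by intercalated-like cells (192, 210 and 272 CPM). Pck2 was highest by its median in the class of pericyte, mesangial and smooth muscle markers (46.0, 55.7 and 71.0 CPM), followed by thin limb-like cells (49.7, 25.7 and 48.0 CPM). These levels rest on few counts, 9, 14 and 54 in the first class and 25, 6 and 22 in the second, and in db/m the second stood higher. By its median Pck2 was lowest in proximal tubule-like cells.

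In the 3 classes where Ppargc1a was highest, its genotype ratio had a counting interval that held 0. The log2 ratio for db/db control over db/m was 0.12 (-0.01 to 0.26) in thick ascending limb-like cells, -0.02 (-0.19 to 0.15) in distal convoluted tubule-like cells and 0.13 (-0.17 to 0.44) in intercalated-like cells, beside 0.96 in proximal tubule-like cells. Under fructose these classes gave 0.16, 0.17 and 0.37, where proximal tubule-like cells gave -0.26. In endothelium-like cells, where its level was 25.4, 52.5 and 29.9 CPM and only 1.40 to 1.61 times the carry-over level described below, Ppargc1a had ratios of 1.05 (0.49 to 1.65) and -0.81 (-1.23 to -0.40). Foxo1 in the same cells had ratios of -0.32 (-0.58 to -0.07) and 0.16 (-0.05 to 0.37). The difference between classes was not tested.

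RNA set free from proximal tubule cells can enter other droplets, and levels elsewhere were set against a carry-over level, the proximal tubule level times the share of proximal tubule marker RNA in the class, which was 9.20% to 42.8% over the 30 pairs of another class and a library. Pck1 was 0.52 to 1.13 times and G6pc 0.39 to 1.25 times this level, and neither was called above it, by at least 1.5-fold with at least 20 counts, in any of 30 pairs. The other members were called above it in 19 (Fbp1), 22 (Glud1), 18 (Ppargc1a), 16 (Foxo1), 15 (Pck2), 14 (Pcx) and 9 (Slc37a4) of 30 pairs, in all 28, 38 and 47 of 90 pairs of class and member in the 3 libraries. Of these pairs 63, 68 and 78 had 20 counts. Among pairs of class and any gene with 20 counts, 95.7%, 94.7% and 95.7% were above the carry-over level in the same order.

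Ppargc1a was 3.39 to 11.7 times the carry-over level in thick ascending limb, distal convoluted tubule, connecting tubule and principal, intercalated and thin limb-like cells, in all 3 libraries. Among genes with at least 20 counts, the median log2 fold over carry-over was 1.33 to 4.46 over these classes and libraries. Ppargc1a was above the median of its class in thick ascending limb and distal convoluted tubule-like cells in all 3 libraries. It was below it in thin limb-like cells in all 3, in connecting tubule and principal-like cells of both db/db libraries, and in db/db control intercalated-like cells. Foxo1 was 14.1, 10.6 and 8.91 times the carry-over level in endothelium-like cells. The gene-wide median log2 fold there was 3.04, 2.91 and 3.21, so Foxo1 was above it on control diet and just below it under fructose. Glud1 was above the carry-over level in 7 classes in all 3 libraries, reaching 6.51, 4.62 and 4.80 times in thin limb-like cells. That was below the gene-wide median log2 fold of 4.43, 4.46 and 4.26 in that class. Fbp1 lay between 1.11 and 2.39 times the level in each of the 30 pairs, and lymphocyte-like cells lay within that range, at 1.35, 1.90 and 1.81 times. The plot of folds over carry-over shows these patterns.

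**Figure D4:**
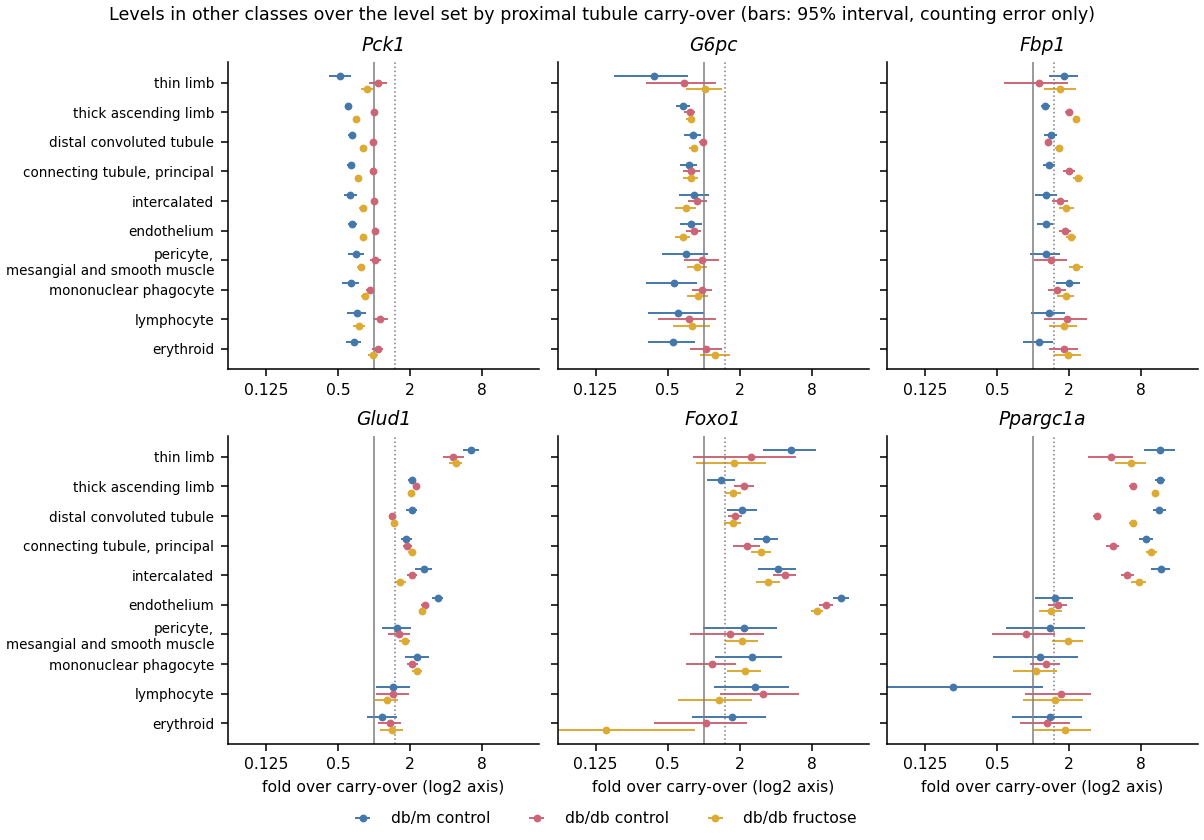
Level of 6 members in 10 classes divided by the level that carry-over of proximal tubule RNA would give (x axis, log2 scale, solid line at 1 and dotted line at 1.5-fold), 1 point per class and library with its 95% interval for counting error. Pck1 and G6pc stay near or below 1 and Fbp1 stays between 1.11 and 2.39. Foxo1 in endothelium and Ppargc1a in distal segments lie past the dotted line, as do most genes measured in those classes. Intervals of points that rest on 1 count run past the left edge.

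Around the members, 105 other genes of the pathway were listed by role, of which 90 had at least 10 CPM in a library of each comparison in proximal tubule-like cells. In db/db control against db/m, 16 were at least 1.5-fold higher and 3 lower (18 and 3 on the nuclear scale), at a median log2 ratio of 0.14. In db/db fructose against db/db control, 11 were higher and 3 lower, at a median of 0.22, but on the nuclear scale 4 were higher and 6 lower, at a median of 0.03. The list as a whole is a description, set beside the gene-wide shares given above.

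Supply of substrate differed by carrier. Slc16a7, a monocarboxylate carrier of high affinity, measured 45.3 CPM in db/m, 100.3 CPM in db/db control and 53.3 CPM in db/db fructose. Slc16a1, another such carrier, measured 44.5, 70.1 and 50.6 CPM, so both were highest in db/db control. Slc5a12, the sodium-coupled lactate carrier of the apical membrane, measured 403, 397 and 1118 CPM, at a diet ratio of 1.49 (1.45 to 1.54), and it is also among the markers that named the class and ordered its cells. Mpc1, a subunit of the mitochondrial pyruvate carrier, measured 255, 155 and 140 CPM, and was lower in both db/db libraries, at a genotype ratio of -0.72. The alanine transaminase Gpt2 measured 42.0, 36.0 and 58.8 CPM. In this list of 21 genes, 3 were higher and 1 lower in db/db control than in db/m, and 4 higher and 1 lower under fructose (1 and 2 on the nuclear scale).

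Of 11 measured genes of glutamine use and ammonia formation, 3 were higher and none lower between the genotypes. Under fructose 2 were higher (1 on the nuclear scale) and none lower. Prodh, which starts proline breakdown, measured 448, 678 and 829 CPM. Glul, which makes glutamine from glutamate and ammonium, was high in the fructose library alone, at 163, 143 and 259 CPM. Slc38a3, a glutamine carrier, gave 43, 405 and 475 counts, or 4.04, 37.3 and 37.4 CPM; it was named after its values were seen.

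Of 12 measured genes listed as opposing glucose output, 5 were higher in db/db control than in db/m (6 on the nuclear scale) and none lower, where 7.29% of all measured genes were higher and 12% lower. Under fructose 2 were lower (3 on the nuclear scale) and none higher, where 1.44% of all measured genes were lower and 11.8% higher. The 5 hold Pdk4 and Pdk1 and the 2 hold Pdk4, kinases that do not oppose the pathway, so neither count is of opposing genes alone. Pkm, a pyruvate kinase, measured 34.5, 98.0 and 62.1 CPM, and Pdk4, a kinase that shuts pyruvate dehydrogenase and so spares pyruvate rather than opposing the pathway, measured 51.2, 119 and 60.1 CPM. The other 3 higher, named after their values were seen, were the pyruvate kinase Pklr (14.6, 42.3 and 44.5 CPM), the hexokinase Hk1 (14.8, 28.7 and 19.3 CPM) and Pdk1, a kinase related to Pdk4 (8.27, 36.4 and 30.5 CPM). Slc2a2, the basolateral glucose carrier through which glucose leaves the cell, measured 116, 196 and 213 CPM, at ratios of 0.75 (0.65 to 0.86) and 0.12 (0.04 to 0.21), and it too is an early marker of the score. Of the 8 measured steps shared with glycolysis, Tpi1 alone was past 1.5-fold, at 382, 232 and 265 CPM.

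Among 15 measured transcription factors and cofactors, 1 was higher between the genotypes and 3 under fructose (1 on the nuclear scale), with none lower. Klf15, which promotes amino acid breakdown and Pck1 expression in liver, measured 59.4, 46.5 and 99.5 CPM, at a diet ratio of 1.10 (0.95 to 1.25). Ppara, a factor of fatty acid oxidation, measured 118, 193 and 293 CPM. Hnf4a, which maintains proximal tubule identity, measured 283, 223 and 317 CPM and was lowest in db/db control. In insulin and cyclic AMP signalling, Sik1, a kinase that restrains cyclic AMP-driven transcription, measured 70.5, 26.6 and 52.2 CPM, at ratios of -1.41 (-1.61 to -1.21) and 0.97 (0.77 to 1.18), and Adcy6, an adenylyl cyclase, 46.0, 76.5 and 78.6 CPM. These were the 2 past 1.5-fold between the genotypes among 17 measured. Of the paralogs, Ppargc1b followed the order of Ppargc1a, at 29.1, 56.6 and 44.6 CPM, and Foxo3 measured 73.8, 115 and 158 CPM. Also past 1.5-fold were Gpt (higher in both comparisons), Gk and Slc37a3 (higher under fructose), named after their values were seen.

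**Figure D5:**
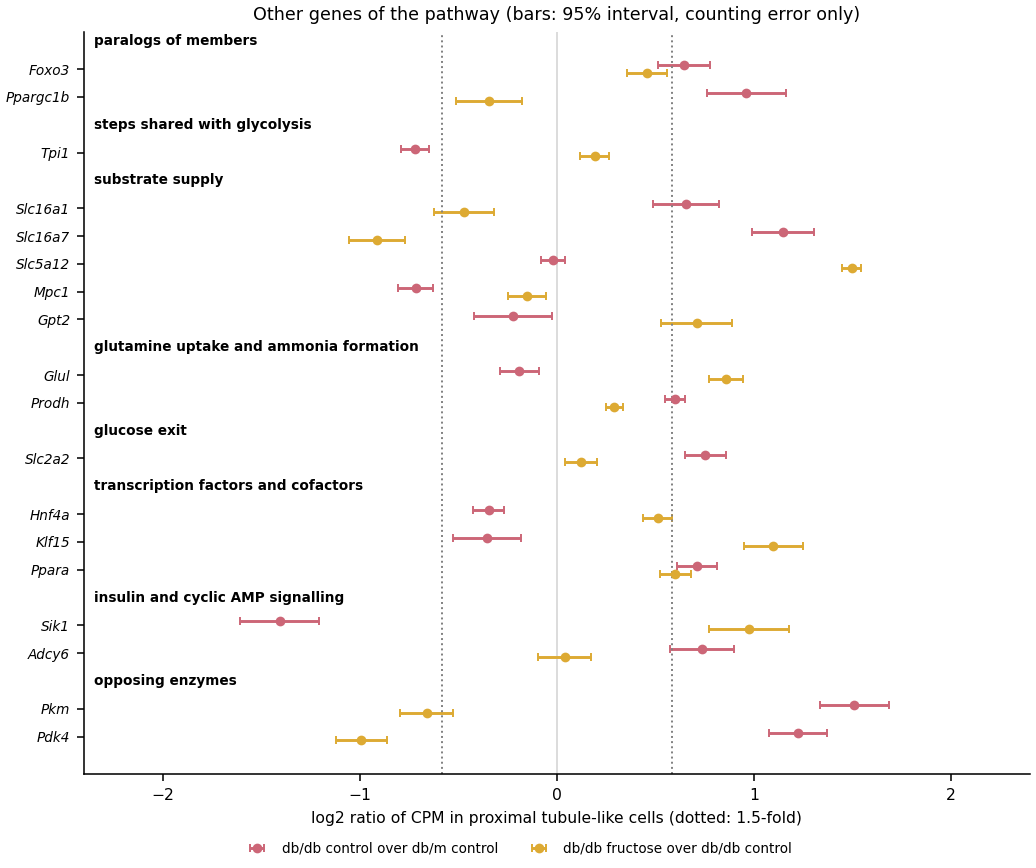
Log2 ratio in proximal tubule-like cells (x axis) of other pathway genes described in the text, grouped by role, for db/db control over db/m control (red) and db/db fructose over db/db control (yellow), with 95% intervals for counting error and dotted lines at 1.5-fold. Ppara lies to the right in both comparisons, and Slc16a7, Pkm and Pdk4 lie to the right for the genotype and to the left for the diet.

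Over 27 points of a class and a library with at least 100 cells, the genes whose level was most like that of each member, among 7568 searched by Pearson's r of log2(CPM + 10) are named here, and the points share free RNA and libraries. Pck1 was closest to Slc13a3 (0.98) and Slc5a2 (0.98), G6pc to Slc34a1 (0.98), Pcx to Myo15b (0.97) and Slc37a4 to Slc4a4 (0.96). Fbp1 had an r of 0.95 with Gk. Ppargc1a was closest to Fbxo44 (0.97) and Glud1 to Gldc (0.93). Foxo1 had its closest match in Fbxw2, at 0.85, and Pck2 in Ahnak, at 0.94. An unnamed cluster led by Cd74, Sparc and Cryab, chosen after its values were seen, was below the proximal tubule-like class in Pck1 in each library, at 825, 1638 and 2224 CPM. Its Fbp1 was 751 CPM in 213 db/m cells, 327 CPM in 146 db/db control cells and 1117 CPM in 777 db/db fructose cells, and so above the class in db/m and db/db fructose.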

How the data were processed

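The 3 libraries, 1 per group, were measured by droplet single-cell RNA sequencing. The deposited values are whole UMI counts for every gene in every barcode; the authors ran Cell Ranger 6.0.0 on build mm10, per the file headers and the submitters' processing notes; how barcodes were called is not given in the sources used here. Everything else was computed from these counts. Barcodes under 200 genes or over 50% mitochondrial UMIs were dropped. Scrublet scores removed the expected doublets, set at 0.8% per 1000 barcodes (10.8%, 21.2% and 16.3% of barcodes), so the number removed follows from the number of barcodes. Cells were scaled to 10000 UMIs and clustered in scanpy 1.11.5 (2000 variable genes without the 9 members, 30 principal components, 15 neighbours, Leiden resolution 1, igraph 0.11.9), with numpy 2.4.6 and scipy 1.17.1.

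Of 29 clusters, those with at least 3 markers detected in 10% of cells at 2-fold over the median cluster, a mean log2 fold of at least 1.2 and a lead of 0.5 on any other class were named. The median cluster replaced all other cells as the reference after the clusters were seen, because most proximal tubule clusters had otherwise stayed unnamed. The rule gave 13 classes, 11 of them with at least 50 cells per library, and 3.03%, 18.2% and 7.60% of cells stayed unnamed. Most unnamed db/db control cells, 2726, lay in 1 cluster that held 66 db/m and 344 db/db fructose cells. These db/db control cells had a median mitochondrial share of 39.2%, with 1904 CPM of Pck1 and 170 CPM of G6pc. How leaving them out bears on the genotype ratios of the proximal tubule-like class was not tested. Counts were summed per class and library, and genes with at least 10 CPM in either library were compared by their ratio. Intervals are exact Poisson for levels, conditional binomial for ratios and Clopper-Pearson for shares, and cover counting error only. The code for ratios and intervals was checked on simulated counts with known folds; no difference between the groups was tested.

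All 9 members are named. From each pathway list, up to 3 genes per comparison are named by size of change among those past 1.5-fold with at least 50 CPM, and Mpc1, Slc2a2, Hnf4a and Pdk4 in any case; some genes this rule names are not reported here. The members and lists were chosen with earlier results of these data known. Alternatives covered the filters, doublet removal, resolution, scaling, thinning, free RNA, the fold and the ranges.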

Additional observations from a re-analysis of the deposited data

How the results depend on the processing

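No paired analysis was possible because each group has 1 library. Over 12 settings, 190 member ratios in proximal tubule-like cells were set against the reported ones: 96 stayed inside the reported counting interval, 93 moved out of it and 1 that was past 1.5-fold changed sign. That was Foxo1 under fructose, at a log2 ratio of -0.013 within the second of the shared clusters; the cause was not tested. With ratios under 1.5-fold included, 10 changed sign, 9 of them for the genotype. The lowest values were -0.33 for Foxo1, -0.08 for G6pc, -0.06 for Pcx and -0.02 for Pck1, all within the first shared cluster. Of the 9, 5 were G6pc. Its genotype ratio fell below 0 with at most 30% mitochondrial UMIs, without doublet removal, after thinning and in each shared cluster. Limits of single clusters and of 5 to 15% mitochondrial UMIs were chosen after seeing the data. With a 2-fold line, 0 members were past it in either comparison, in any late-over-early ratio or within a range, and 7 and 2 pathway genes were past it for genotype and diet. For the genotype, the count of 2 members became 1 after thinning, 1 with 5 to 15% mitochondrial UMIs and 0 in the first shared cluster. For the diet, the count of 3 members became 0 with nuclear UMIs, with size factors and with 5 to 15% mitochondrial UMIs, and 1 with at most 30% mitochondrial UMIs and in either shared cluster. Subtracting free RNA put 29 (genotype) and 22 (diet) pathway genes past 1.5-fold and gave no value for Foxo1, and the second shared cluster put 9 past it for the diet. Of all measured genes, 21.4% (genotype) and 11.3% (diet) were past 1.5-fold with 5 to 15% mitochondrial UMIs. In the first shared cluster 25% and 13.8% were, and in the second 36.6% and 16.5%. Besides the nuclear shares over the class given above, counts under the other settings have no gene-wide share beside them and cannot be read against a background. In late-over-early ratios, thinning gave 2 members in db/m, and db/db control had 2 with androgen-responsive markers and 3 with its own terciles. For the diet in early cells, the count was 0 with nuclear UMIs and 1 after thinning or with androgen-responsive markers. For the genotype, androgen-responsive markers gave 1 in early cells, and late cells had 4 with nuclear UMIs, 3 after thinning and 4 with androgen-responsive markers. Without doublet removal, a cluster mostly of db/db control proximal tubule cells stayed unnamed. Depth limits Pck2 in proximal tubule-like cells and Foxo1 and Ppargc1a in the late db/db control range.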
